A study of Mus musculus with 18 samples.

Results

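Liraglutide was compared with PBS in the non-infarcted left ventricle (LV) of mouse hearts 3 days after myocardial infarction. The comparison rests on 6 of the 18 libraries of the series, 3 from mice given liraglutide and 3 from mice given PBS, and covers all genes: of 25230 gene symbols counted, 12919 had enough reads to be tested. All mice were male C57BL/6J and, in both groups, had the left anterior descending coronary artery tied off, so the PBS libraries are infarcted hearts and not healthy ones. The tissue is the part of the same ventricle that the labels call non-infarcted, and the atria and the infarcted LV were sequenced alongside. Polyadenylated RNA was read with a stranded kit. Dose, schedule and start of treatment, the age and number of the mice, and whether animals were pooled are details that the labels and notes leave out; sham-operated mice are named in the protocol and were not analysed here. The labels call the libraries of a group biological replicates without saying that each is a separate animal, so the p-values measure the spread between these libraries.

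Liraglutide is a long-acting analogue of glucagon-like peptide 1 (GLP-1), a gut hormone that raises insulin release after meals, and is used against diabetes and obesity. It acts through the GLP-1 receptor, a membrane receptor that couples to G proteins and raises cyclic AMP (cAMP). In the days after an infarct the surviving myocardium takes over the work of the lost muscle under higher wall stress, while inflammatory cells, fibroblasts and the vessels of the heart react to the injury.

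The 6 libraries held between 8341694 and 17016262 counted reads, and Myh6, the cardiomyocyte myosin heavy chain that dominates adult mouse ventricle, was the top gene in each, with 3.919% to 4.623% of the reads. Levels are given as CPM, each gene's reads as a share of the library's reads scaled to a fixed total, after TMM scaling of the libraries. Cardiomyocyte markers were abundant throughout, T and B cell, adipocyte and skeletal muscle markers each summed to under 2 CPM in every library, and the atrial cardiomyocyte markers summed to 154 to 347 CPM with liraglutide and 145 to 505 CPM with PBS. PBS replicate 3, the shallowest library, stood apart. On the first principal component of the 500 most variable genes, which held 46% of their variance, it lay at 20.54, against -7.438 to 2.242 for the other 5. Where leaving it out turned a gene's difference within non-infarcted LV or moved it by over 1.5 times, both values are given; Dpp4, Gpnmb and the genes named only for a difference between regions were not checked in this way.

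The receptor for the drug was not detected beyond 1 read at this depth in non-infarcted LV. Glp1r had 0 reads in each of the 3 liraglutide libraries, and 0, 0 and 1 reads in the PBS libraries. Where the count was 0, up to 3 reads are allowed, or 0.1755 to 0.275 CPM depending on the library. Such limits cover counting error only. Gipr, the receptor of the other incretin hormone, had 8, 4 and 3 reads with liraglutide and 11, 0 and 3 with PBS. Dpp4, the protease that inactivates GLP-1, had 31, 28 and 30 against 40, 18 and 9 reads. Gcgr, the glucagon receptor, had 2, 10 and 1 against 10, 5 and 1. Dpp4 alone of these 4 was tested, with overlapping groups and a log2 difference of 0.26 (SE 0.291).

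No gene differed between liraglutide and PBS after adjustment. With edgeR's quasi-likelihood test and Benjamini-Hochberg adjustment over all genes, 0 of 12919 genes (0%) had an adjusted p under 0.05, and the smallest adjusted p was 0.319. At an unadjusted p under 0.05 there were 561 genes (4.34%), of which 248 (1.92%) stood higher and 313 (2.42%) lower with liraglutide. DESeq2 on the same counts called 2 genes, Mtus2 and Ptgds, and limma-voom with sample weights called 0. Differences were small: 97.2% of the genes lay within 0.5 of 0 on the log2 scale, and the 5th and 95th percentiles were -0.293 and 0.289. The median standard error (SE) of a log2 fold change was 0.12 over all genes tested. Among the 10568 genes with a mean count of at least 50 it was 0.107. In those genes the median spread within a group was 7.51% of the mean with liraglutide and 8.44% with PBS. Of the 20 genes beyond 1 on the log2 scale, 1 had a mean count of at least 50.

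**Figure D1:**
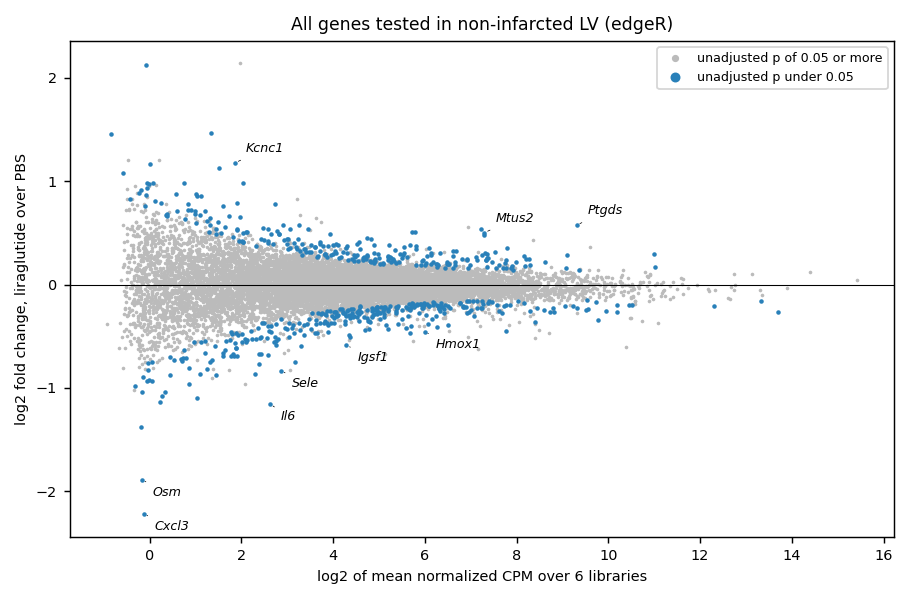
Each point is 1 of the 12919 genes tested, with the log2 of its mean normalized CPM over the 6 libraries on the x axis and its log2 fold change (liraglutide over PBS) on the y axis; blue marks the 561 genes with an unadjusted p under 0.05. The cloud narrows around 0 as the level rises, and none of the genes passed the adjusted threshold.

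The genes described next are the 12 in each direction with the smallest p among well-counted genes whose 3 liraglutide libraries all lay above, or all below, the 3 PBS libraries. They were chosen by p and by that separation, so neither is evidence in itself; of all genes tested, 1274 (9.86%) had groups that do not overlap, 646 (5%) higher and 628 (4.86%) lower. No member of this set passed the adjusted threshold in edgeR.

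Higher levels with liraglutide were led by Mtus2, which codes for a microtubule-associated protein. Its level was 187, 179.9 and 187 CPM with liraglutide and 145, 122 and 123 CPM with PBS. The 3 liraglutide libraries were within a few percent of one another and above every PBS library. The difference was 0.50 on the log2 scale (SE 0.0797, 95% interval 0.33 to 0.67, adjusted p = 0.319). Ptgds, which makes a prostaglandin of the D series and is also a secreted lipid carrier, stood at 867, 634 and 777 CPM with liraglutide and at 509.5, 569 and 451 CPM with PBS. The lowest liraglutide value was only a little above the highest PBS value. Its log2 difference was 0.57 (SE 0.119, adjusted p = 0.999).

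The other higher genes are described by what they are known to do, with no test of any shared function. Oas2, an interferon-induced sensor of double-stranded RNA, measured 31.7, 30.6 and 36.2 CPM with liraglutide and 24.6, 24.6 and 23.3 CPM with PBS, a log2 difference of 0.44 (SE 0.0968). Gbp6, an interferon-induced GTPase, measured 53.3, 62.1 and 69.3 against 38.4, 40.4 and 51.5 CPM, or 0.51 (SE 0.123). Its relative Gbp10, at 4.17, 5.62 and 6.14 against 1.87, 2.75 and 3.93 CPM, differed by 0.98 (SE 0.258). Gbp6 and Gbp10 are close copies in 1 cluster on chromosome 5, so how the counting split reads between them is uncertain. Fv1, which restricts retroviruses in mice, had a mean of 12.9 ± 1.56 CPM (SD, n = 3) against 8.96 ± 0.73.

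Abca1, which exports cholesterol from cells, was at 67.5, 63.5 and 55.7 CPM with liraglutide and 49.5, 48.2 and 49.9 CPM with PBS. Ctsl, the lysosomal protease cathepsin L, was at 271, 245 and 232 against 198, 212 and 176 CPM. Prodh, the mitochondrial enzyme that begins proline breakdown, was at 44.3, 40.2 and 41.6 against 31.5, 36.4 and 28.4 CPM. These 3 genes differed by 0.34 to 0.39 on the log2 scale, which is about the size seen for the remaining members Ift81, a ciliary transport protein (0.38, SE 0.0849), Ctnnal1, a relative of alpha-catenin (0.36, SE 0.0906), and Armc2 (0.35, SE 0.0962). The adjusted p of every one of the 12 except Mtus2 was 0.999.

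Lower levels with liraglutide were led by Sele, which codes for E-selectin, the adhesion molecule with which activated endothelium catches leukocytes. Sele lies on chromosome 1 at 164048234 to 164057677 (mm10). It measured 5.51, 4.93 and 5.29 CPM with liraglutide and 9.30, 9.90 and 8.74 CPM with PBS. Every liraglutide library was well below every PBS library, and the spread within each group was narrow. The log2 difference was -0.83 (SE 0.147, 95% interval -1.15 to -0.52, adjusted p = 0.445). The summed level of 4 endothelial markers was 824 to 873 CPM with liraglutide and 851 to 888 CPM with PBS, overlapping ranges.

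Igsf1, a membrane glycoprotein of the immunoglobulin superfamily coded on the X chromosome, measured 17.4, 15.4 and 14.2 CPM with liraglutide and 24.6, 23.6 and 22.2 CPM with PBS, a log2 difference of -0.59 (SE 0.108, adjusted p = 0.445). Hmox1, the stress-induced enzyme that breaks down heme, measured 52.6, 53.7 and 55.0 against 83.1, 74.4 and 63.4 CPM, or -0.46 (SE 0.094, adjusted p = 0.693). The liraglutide values of Hmox1 were nearly identical, while the PBS values were spread. Ccl11, the eosinophil attractant eotaxin, measured 3.72, 4.17 and 3.95 against 5.38, 6.69 and 7.22 CPM, or -0.68 (SE 0.18). Its groups do not overlap, at a low level.

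Serpinh1, the collagen chaperone of the endoplasmic reticulum, was at 188, 194 and 174 CPM with liraglutide and 208, 262 and 291 CPM with PBS, a log2 difference of -0.45 (SE 0.108). Hmcn2, a matrix protein of the hemicentin family, had a mean of 42.8 ± 3.39 against 59.1 ± 10.2 CPM. The ephrin ligand Efnb3 (-0.39, SE 0.1) and Nrp2, a co-receptor for semaphorins and vascular growth factors (-0.29, SE 0.0764), also stood lower, as did Rhoc, a small GTPase of the actin cytoskeleton (-0.33, SE 0.0819), and the kinase Pak6 (-0.42, SE 0.0973). The last members were Fam131a (-0.36) and Ypel5 (-0.32). Apart from Sele, Igsf1 and Hmox1, all 12 had an adjusted p of 0.999.

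**Figure D2:**
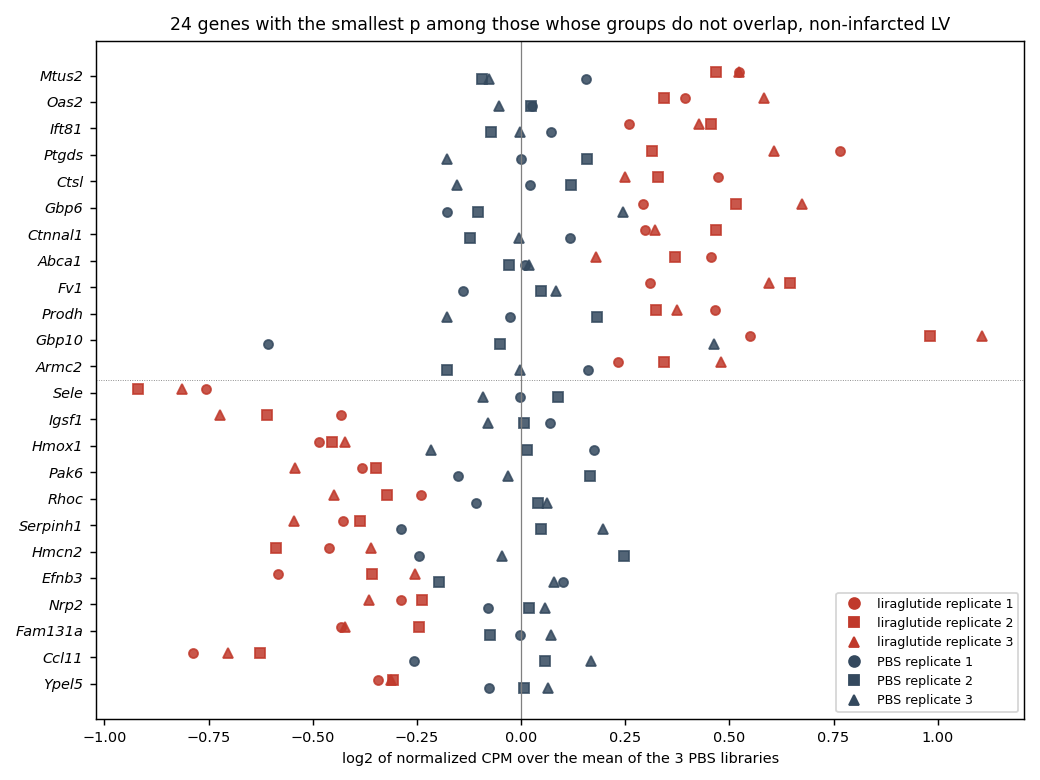
For each of the 24 genes, the 6 points are the libraries, placed by the log2 of their normalized CPM over the mean of the 3 PBS libraries; red is liraglutide, dark blue is PBS and the symbol gives the replicate. The upper 12 genes have all red points to the right of the dark ones and the lower 12 have them to the left, which is how they were chosen; the points of Mtus2 and Sele, which had the smallest p in each direction, lie clear of each other.

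To describe functions, 38 lists of genes were used, holding 642 symbols of which 552 were tested. For each list described the number of genes tested is given, mostly with the median log2 difference. For only part of the lists the number whose groups do not overlap is given as well. These values are to be read against a median of -0.002 and shares of 5% higher and 4.86% lower over all genes. No gene of any list passed the adjusted threshold. In whole tissue, fewer cells of a type and less RNA per cell cannot be told apart.

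Fatty acid uptake and oxidation, the main energy source of the adult heart, leaned lower with liraglutide. Of 20 genes tested, 16 (80%, against 50.6% of all genes) had a difference below 0, 7 (35%) had all liraglutide libraries below all PBS libraries and 0 the reverse, and the median was -0.15. Hadh, an enzyme of the beta-oxidation cycle, measured 655, 644 and 712 CPM with liraglutide and 757, 776 and 854 CPM with PBS. Acaa2, which cleaves the last intermediate of each cycle, measured 901, 823 and 982 against 1033, 1050.4 and 1145 CPM. Both gaps were clean but narrow, with log2 differences of -0.25 (SE 0.0752) and -0.25 (SE 0.0806). Slc25a20, the carrier of acylcarnitines into mitochondria, was at 198, 187 and 204 against 229, 225 and 229.8 CPM (-0.21, SE 0.0679), and Decr1, needed for unsaturated fatty acids, differed by -0.20 (SE 0.0711). Without PBS replicate 3 the median of the list was -0.12. The 4 cardiomyocyte markers summed to 69600 to 73900 CPM with liraglutide and 66300 to 78600 CPM with PBS, overlapping ranges. The list of ventricular cardiomyocyte markers stood lower by about as much, with 7 of 9 genes below 0, 3 (33.3%) below without overlap and 0 above, and a median of -0.13 that was -0.04 without PBS replicate 3. The 3 genes were Lbh (-0.27, SE 0.0811), Irx3 (-0.22, SE 0.0869) and Cspg4 (-0.23, SE 0.0912), which is also a pericyte marker. In the rest of the list the groups overlapped. Among them were Myl2 (-0.10, SE 0.0824), Myl3 (-0.13, SE 0.103), Irx4 (0.004, SE 0.107) and Hey2 (0.11, SE 0.227). These 4 summed to 15400 to 17200 CPM with liraglutide and 16300 to 19200 CPM with PBS, overlapping ranges. The part of the ventricular cardiomyocyte markers in the fatty acid values was not tested.

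Other lists of energy genes had medians closer to 0. The nuclear-encoded respiratory chain subunits had 19 of 21 genes below 0, but by a median of only -0.05, and in none of them did the groups separate. PPAR targets, which overlap in function with fatty acid oxidation, had a median of -0.02 over 14 genes. Glucose uptake and glycolysis had a median of -0.03 over 22 genes, with 3 above and 1 below without overlap. Pfkfb2, the heart enzyme that makes the activator of phosphofructokinase, measured 211, 199 and 206 CPM with liraglutide and 187, 166 and 139.5 CPM with PBS (0.32, SE 0.0938). Hk1 (0.18, SE 0.071) and Ldhb (0.12, SE 0.0717) also stood higher in all liraglutide libraries, and Pfkp lower (-0.18, SE 0.0812, and -0.10 without PBS replicate 3).

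Insulin signalling and FOXO targets had 13 of 20 genes above 0 and a median of 0.08. Bnip3, a mitophagy receptor, measured 329.6, 354 and 324 CPM with liraglutide and 303, 274 and 269.7 CPM with PBS (0.25, SE 0.0738). Akt2, the insulin-responsive kinase, differed by 0.16 (SE 0.0696), and Eif4ebp1, the translation repressor below mTOR, by -0.18 (SE 0.0769). Irs2, an adaptor of the insulin receptor, measured 32.4, 62.0 and 59.7 CPM against 41.7, 35.8 and 80.0 CPM, with wide overlap and a log2 difference of -0.01 (SE 0.445), which was 0.40 without PBS replicate 3. Genes of incretin receptors and cAMP signalling showed a median of -0.01 over 16 tested. The catalytic subunit gene Prkaca differed by -0.12 (SE 0.0684), Creb1 by 0.20 (SE 0.123), the cAMP-inducible repressor Crem by -0.30 (SE 0.167, and -0.16 without PBS replicate 3) and the beta-adrenergic receptor Adrb1 by -0.28 (SE 0.138).

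Contractile genes differed little. Myh6 differed by 0.04 (SE 0.0845, 95% interval -0.14 to 0.22), and Myh7, the slow myosin re-expressed under load, by 0.11 (SE 0.134). Without PBS replicate 3 these values were 0.08 and -0.03. Of 18 contractile and Z-disc genes 15 lay below 0, with a median of -0.06, and 2 had groups that do not overlap. These were Mybpc3, the myosin-binding protein, at 4623, 4428 and 4986 CPM with liraglutide and 5179.7, 5295 and 5724 CPM with PBS (-0.21, SE 0.0761), and Tpm1, tropomyosin (-0.16, SE 0.0718). Calcium handling and channel genes had a median of -0.000254 over 19 genes. In that list Casq2, the calcium buffer of the sarcoplasmic reticulum, differed by -0.27 (SE 0.0888, and -0.17 without PBS replicate 3), and Kcnip2, a subunit of the transient outward potassium channel, by 0.23 (SE 0.0808).

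Inflammatory cytokines and chemokines had the lowest median of the 35 lists with at least 5 genes tested, -0.48 over the 18 genes of 27 that had enough reads. Of these, 15 (83.3%) lay below 0 and 4 (22.2%) had all liraglutide libraries below all PBS libraries. Il6, the cytokine that drives the acute-phase response, measured 3.87, 2.40 and 5.38 CPM with liraglutide and 7.19, 12.1 and 6.08 CPM with PBS. The groups separate by little, and PBS replicate 2 is the highest. The log2 difference was -1.16 (SE 0.334, adjusted p = 0.999). Cxcl9, a T cell attractant, was at 2.91, 3.66 and 2.10 against 5.50, 4.58 and 3.80 CPM (-0.69, SE 0.231).

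Cxcl3, a neutrophil attractant, rested on few reads, at 0.223, 0.442 and 0.252 CPM with liraglutide against 0.936, 2.75 and 0.886 CPM with PBS (-2.22, SE 0.558). Osm, the cytokine oncostatin M, was as sparse, at 0.223, 0.568 and 0.252 against 0.877, 2.02 and 1.39 CPM (-1.89, SE 0.483). In both, PBS replicate 2 was the highest library. Without it the median of the whole list was -0.115, so the size of the list's lean depended on that library. The 4 neutrophil markers summed to 22.7, 34.7 and 34.3 CPM with liraglutide and 19.9, 37.6 and 41.7 CPM with PBS, and 4 macrophage markers to 74.8 to 94.2 and 78.8 to 84.0 CPM. Neither sum separated the groups. Ccr2, the receptor on recruited monocytes, measured 1.86, 1.96 and 1.68 against 2.22, 4.49 and 2.79 CPM (-0.75, SE 0.287). It was the 1 gene below without overlap among 11 markers of recruited monocytes and macrophages, of which 5 lay above 0 and 6 below, with a median of -7.44e-05; Gpnmb lay above without overlap (0.40, SE 0.283). Resident macrophage markers had a median of 0.05 over 13 genes.

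Complement and acute-phase genes leaned the other way, with 15 of 18 (83.3%, against 49.4% of all genes) above 0 and a median of 0.11. Their groups separated upward in 3 genes (16.7%) and downward in 1 (5.56%). C4b, a complement component of the classical pathway, measured 29.0, 35.4 and 27.9 CPM with liraglutide and 21.99, 26.5 and 19.0 CPM with PBS (0.45, SE 0.13); part of its reads may belong to a near-identical copy. C3, the central complement protein, measured 198, 209.9 and 136 against 134, 128 and 128 CPM (0.48, SE 0.148). Liraglutide replicate 3 was barely above the PBS libraries for C3, and without that replicate the difference was 0.65, with an adjusted p of 0.0324. Cfb, of the alternative pathway, differed by 0.41 (SE 0.186). Interferon-stimulated genes had 15 of 19 above 0 and a median of 0.11. In that list Ifit1 alone had groups that do not overlap, at 6.63, 5.49 and 5.29 against 5.15, 4.03 and 3.80 CPM (0.39, SE 0.186).

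Fibroblast and matrix genes had a median of -0.125 over 25 genes, with 17 below 0 and 3 (12%) below without overlap against 1 above. Tnc, tenascin C, a matrix protein laid down at injury borders, measured 4.99, 3.66 and 3.03 CPM with liraglutide and 7.19, 7.33 and 5.06 CPM with PBS (-0.77, SE 0.214). The highest liraglutide library was just under the lowest PBS library. Sparc, a collagen-binding protein, was at 324, 331 and 303 against 358, 412 and 354 CPM (-0.23, SE 0.0783), and Col5a1 differed by -0.28 (SE 0.104). Tgfb1, the growth factor that activates fibroblasts, is from a separate list of TGF-beta and BMP genes and differed by -0.28 (SE 0.0983). That list had a median of -0.07 over 21 genes, with 15 below 0 and 6 above. In it, 2 genes (9.52%) lay below without overlap and 0 above. The 5 fibroblast markers summed to 557 to 660 CPM with liraglutide and 562 to 641 CPM with PBS. Endothelial markers had a median of 0.001 over 23 genes, with 12 above 0 and 11 below. Their groups separated upward in 3 genes (13%) and downward in 3 (13%). Among the lower ones Nos3, the endothelial nitric oxide synthase, measured 55.1, 48.2 and 55.5 against 56.1, 68.1 and 68.8 CPM (-0.28, SE 0.0959).

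**Figure D3:**
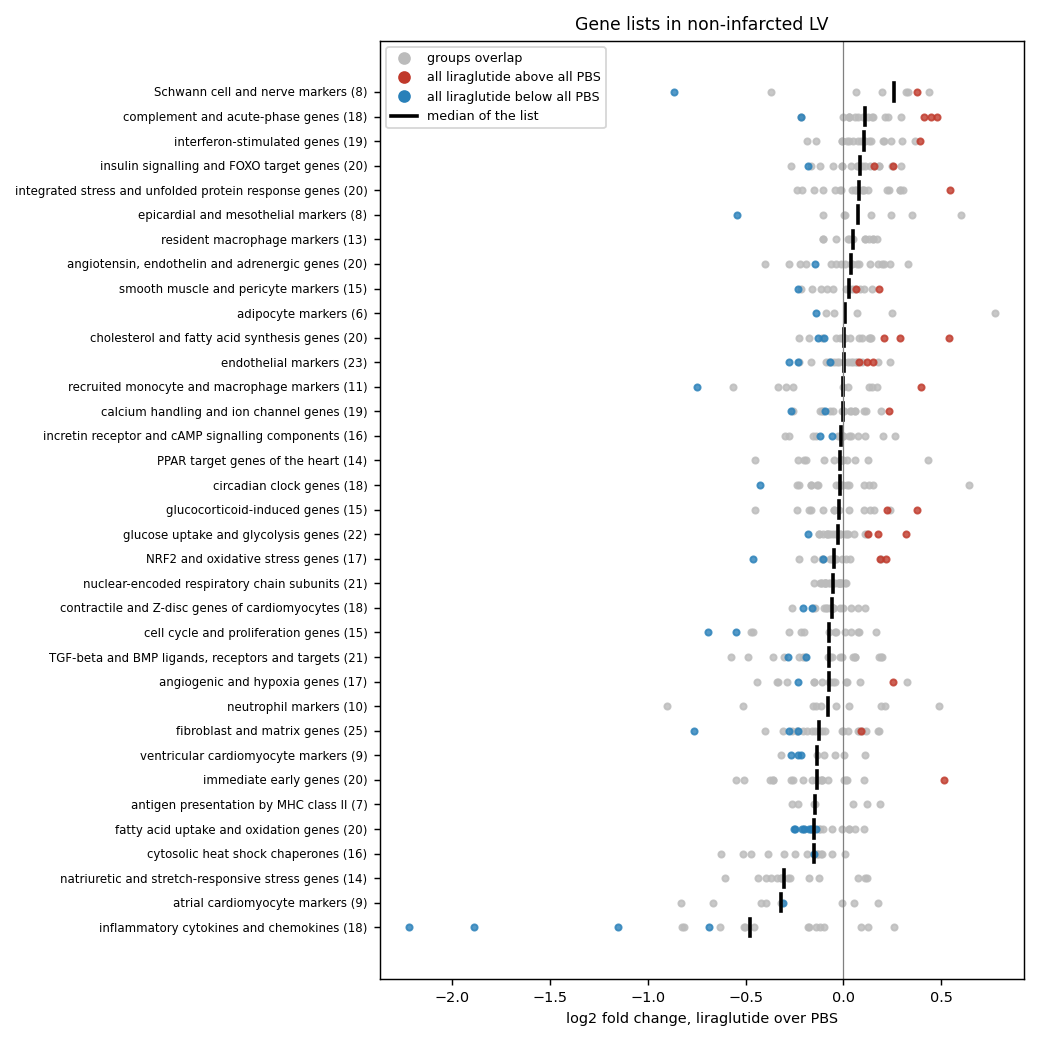
Each row is a list with at least 5 genes tested (number in brackets), each point 1 gene's log2 fold change of liraglutide over PBS and each black bar the median; red and blue points are genes whose groups do not overlap. Cytokines lie at the bottom with a median of -0.48, fatty acid oxidation holds 7 blue points and 0 red, and complement and acute-phase genes have a median of 0.11.

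The values of several acute stress genes depended on PBS replicate 3. Of the 10568 well-counted genes, that library was the highest of the 6 in 2495 and the lowest in 2319. Each of the other libraries was the highest in 1404 to 1849 genes and the lowest in 1346 to 1968. Egr1, an immediate early transcription factor, measured 165, 169 and 179 CPM with liraglutide and 118, 102 and 404 CPM with PBS. The liraglutide values lie between the first 2 PBS libraries and the third. The log2 difference was -0.27 (SE 0.638) with all libraries and 0.64 without PBS replicate 3, where Egr1 was the 1 gene called, with an adjusted p of 0.0395. Fos, at 16.8, 38.0 and 73.6 against 19.6, 17.2 and 157 CPM, went from -0.55 (SE 1.19) to 1.20 without that library. Atf3, a stress-induced transcription factor, at 59.2, 118 and 127 against 97.0, 56.9 and 284 CPM, went from -0.51 to 0.39. The list of immediate early genes had a median of -0.14 over 20 genes. Of these, 5 lay above 0 and 15 below, with 1 above and 0 below without overlap. Nr4a2, at 3.13, 2.78 and 3.36 against 2.52, 1.47 and 2.41 CPM, did not depend on that library. Its difference was 0.51 (SE 0.248) with all libraries and 0.57 without PBS replicate 3. Egr1, Fos, Atf3 and Hspa1a were singled out after their values were seen.

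Natriuretic and stretch-responsive genes had a median of -0.30 over 14 genes, and of -0.04 without PBS replicate 3. The smallest p of the list fell on Ankrd23 (-0.34, SE 0.142) and Nrap (-0.32, SE 0.145), both with overlapping groups. Without PBS replicate 3 both differed by -0.14. Xirp2, an actin-binding protein of the intercalated disc, measured 908, 1166 and 1098 CPM with liraglutide and 1133, 1251 and 2450.2 CPM with PBS (-0.61, SE 0.36). Nppb, the gene of B-type natriuretic peptide, measured 358, 487 and 526 against 398, 354 and 796 CPM (-0.17, SE 0.395, 95% interval -1.24 to 0.89). Ankrd1, a stretch-induced nuclear and sarcomeric protein, was at 1762, 2066 and 1817 against 2019.9, 2153 and 3134 CPM (-0.37, SE 0.168). The values of Xirp2, Nppb and Ankrd1 overlap between the groups, and PBS replicate 3 is the highest in each. Without it the differences were -0.17 for Xirp2, 0.28 for Nppb and -0.15 for Ankrd1.

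Nppa, the gene of atrial natriuretic peptide, did not follow that pattern. It was at 233, 224 and 134 CPM with liraglutide and 252, 381 and 143 CPM with PBS, lowest in replicate 3 of both groups (-0.39, SE 0.454, 95% interval -1.62 to 0.84, and -0.68 without PBS replicate 3). The summed atrial markers were also lowest in those libraries, at 154 and 145 CPM; their part in the Nppa values was not tested. Ccn2, a matricellular target of stretch signalling, differed by 0.08 (SE 0.377) and by 0.47 without PBS replicate 3. For Nppa, Nppb and Ccn2 the intervals are wide enough that a change of 1 on the log2 scale in at least 1 direction lies inside them.

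Cytosolic heat shock chaperones had 15 of 16 genes below 0 and a median of -0.15, which was -0.06 without PBS replicate 3. Hspa1a, the inducible chaperone of the Hsp70 family, ranged from 6.26, 26.1 and 58.1 CPM with liraglutide to 9.12, 16.7 and 86.7 CPM with PBS. It varied more within each group than between them, its log2 difference of -0.25 (SE 1.25) was 1.25 without PBS replicate 3, and its reads may be shared with the near-identical Hspa1b. Dnaja1, a partner of Hsp70, measured 53.0, 58.1 and 62.1 against 58.0, 84.7 and 84.8 CPM (-0.39, SE 0.143). NRF2 and oxidative stress genes had a median of -0.05 over 17 genes. Beside Hmox1, Srxn1, which repairs oxidised peroxiredoxins, stood lower (-0.23, SE 0.0943), while the detoxifying enzymes Gstm1 (0.22, SE 0.0709) and Nqo1 (0.19, SE 0.0838) stood higher in every liraglutide library.

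**Figure D4:**
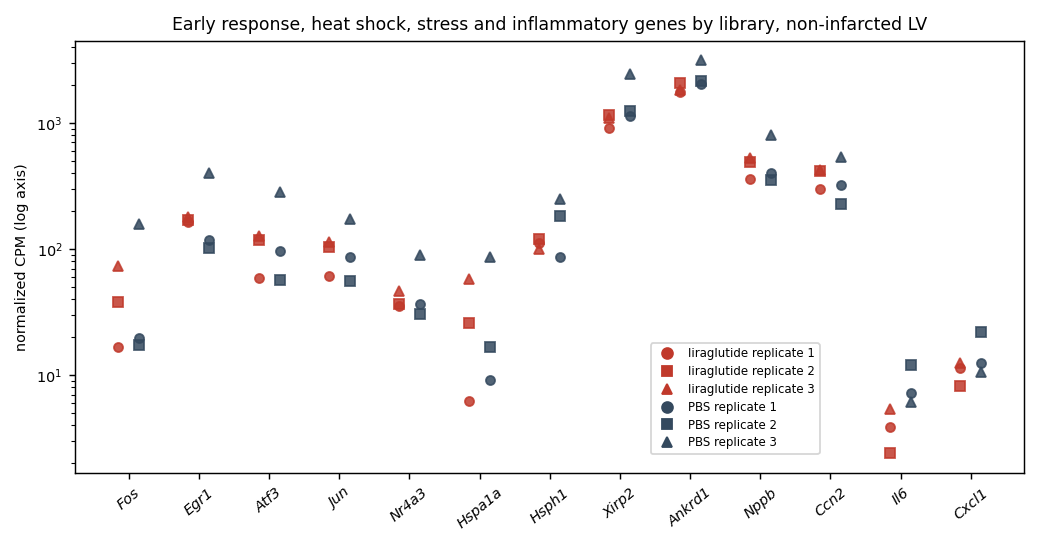
Normalized CPM (log axis) of 13 early response, heat shock, stress and inflammatory genes in the 6 libraries of non-infarcted LV; red is liraglutide, dark blue is PBS and the symbol gives the replicate. PBS replicate 3 (dark triangle) is the highest library for Egr1, at 404 CPM, and for the other early response and stress genes drawn, while Il6 is highest in PBS replicate 2, at 12.1 CPM.

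Whether the difference between liraglutide and PBS in non-infarcted LV was unlike that elsewhere in the heart was tested as a difference of the 2 differences in 1 fit of all 18 libraries. Against infarcted LV, 0 of 13920 genes (0%) passed the adjusted threshold and 174 (1.25%) had an unadjusted p under 0.05. Against atria, 0 of 13920 (0%) passed and 750 (5.39%) had an unadjusted p under 0.05. DESeq2 called 0 and 58 genes for the same differences. The label numbers recur across the regions, so libraries of different regions may come from the same mice; the labels do not say so.

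Lbh, a transcriptional cofactor of the developing heart, came closest. In non-infarcted LV it measured 370.3, 363 and 413 CPM with liraglutide and 453, 427 and 501 CPM with PBS, with all liraglutide libraries below all PBS libraries. The log2 difference between liraglutide and PBS was -0.27 (SE 0.0811) there, 0.92 (SE 0.175) in atria and -0.16 (SE 0.101) in infarcted LV. The difference from atria was -1.20 (SE 0.192, adjusted p = 0.065). Rpl3l, a ribosomal protein of striated muscle, differed from atria by -1.13 (SE 0.245), with -0.14 in non-infarcted LV and 0.97 in atria. Prkag3, a regulatory subunit of AMP-activated kinase, differed by -1.94 (SE 0.417), Arid5b, a chromatin regulator, by -1.04 (SE 0.231) and the scaffold protein Magi3 by -0.81 (SE 0.185). In all 4 the effect in non-infarcted LV was within 0.3 of 0 and that in atria was above it, and the adjusted p was 0.41.

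In the opposite direction stood Prr33 (difference from atria 0.80, SE 0.174), the palmitoyltransferase Zdhhc9 (0.51, SE 0.13), the phosphatase Dusp18 (0.62, SE 0.162), Mtus2 (0.58, SE 0.149) and Ankrd34a (1.39, SE 0.371), with adjusted p from 0.41 to 0.424. Mtus2 had effects of 0.50 in non-infarcted LV and 0.59 (SE 0.0977) in infarcted LV, against -0.09 (SE 0.12) in atria. Irs2, the 1 gene of 13530 (0.00739%) called within atria (1.18, SE 0.108, adjusted p = 0.0234), had a difference of -1.21 between the regions with a wide error (SE 0.364, adjusted p = 0.529). Ccn2 had 1.55 in atria and a difference of -1.50 (SE 0.371, adjusted p = 0.424).

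Against infarcted LV the smallest p-values fell on genes with few reads or small effects. Tlr1, a receptor for bacterial lipoproteins, had -0.48 (SE 0.376) in non-infarcted and 1.45 (SE 0.427) in infarcted LV. Cpt1c, a relative of the carnitine palmitoyltransferases, had 0.49 (SE 0.218) and -0.58 (SE 0.204). Trim68 and Zfp59 lay in the same direction as Cpt1c, with differences of 0.59 (SE 0.191) and 0.97 (SE 0.34), as did Fxyd7 (1.79, SE 0.641), and Pkdrej, Acap1 and Ccpg1os lay with Tlr1, at -0.87, -1.64 and -1.09. Gucy1b2 and Prcd complete the 10 but had mean counts of 1.5 and 7, too few for a fold change in non-infarcted LV.

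Of the 24 genes described first, several had values of similar size in the other regions and others did not; in none was the difference between regions past the threshold. Ptgds had 0.57 in non-infarcted LV, 0.49 (SE 0.193) in infarcted LV and 0.56 (SE 0.148) in atria. Igsf1 had -0.59, -0.44 (SE 0.16) and -0.49 (SE 0.188). Serpinh1 had -0.45, -0.52 (SE 0.128) and 0.03 (SE 0.154). Sele had -0.83 in non-infarcted LV beside -0.19 (SE 0.215) and -0.44 (SE 0.214), Hmox1 had -0.46 beside 0.04 (SE 0.384) and -0.43 (SE 0.241), and Efnb3 had -0.39 beside -0.25 (SE 0.109) and 0.46 (SE 0.214). Across 12626 genes the effects in non-infarcted and infarcted LV had a Pearson r of 0.226, and across 12666 genes those in non-infarcted LV and atria had 0.124, a description over genes that are not independent.

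**Figure D5:**
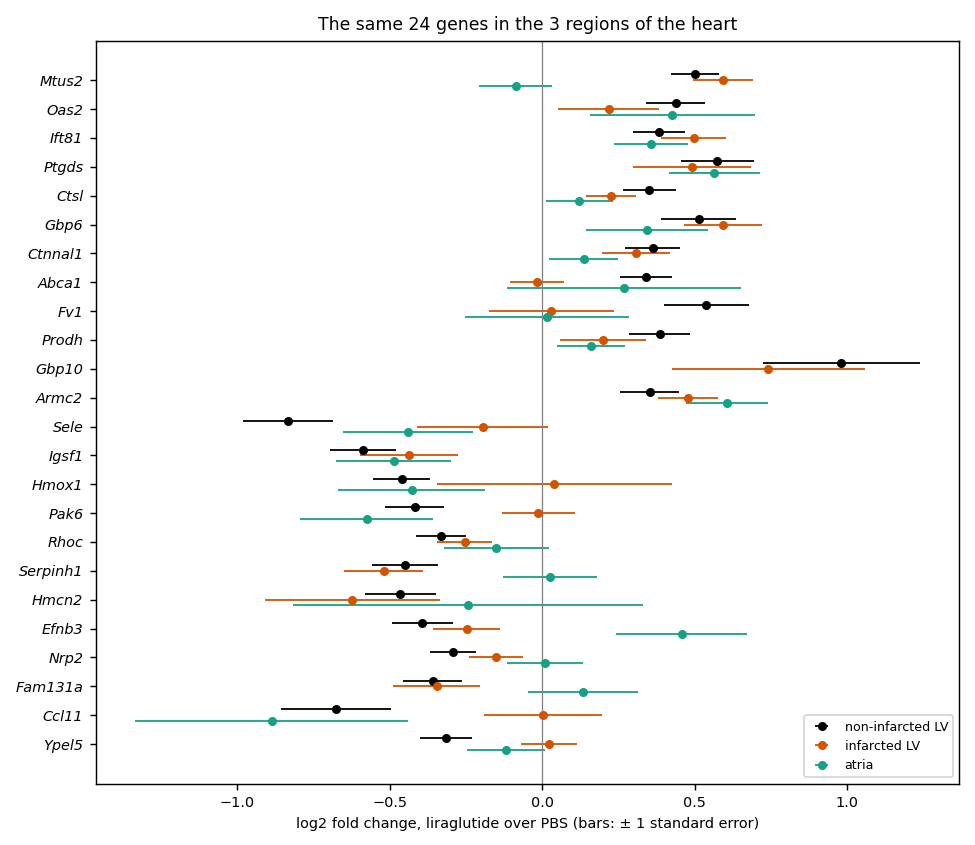
Log2 fold change of liraglutide over PBS (x axis) for the 24 genes in non-infarcted LV (black), infarcted LV (orange) and atria (green), with bars of 1 standard error. The non-infarcted values were used to choose the genes; Mtus2 lies at 0.50, 0.59 and -0.09, and Ptgds near 0.5 in each region. Gbp10 had too few reads in atria for a value.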

How the data were processed

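The authors deposited 1 table of unnormalized whole-number read counts by gene symbol for 18 libraries; of these, the 6 of non-infarcted LV were used here, and all 18 for differences between regions. Per the submitters' processing notes the authors used STAR 2.7.9a, DESeq2 and mm10; how reads were counted, and with which strand setting, is not given in the sources used here, so overlapping genes and near-identical copies may share reads. Counts were filtered with filterByExpr, scaled by TMM and tested with edgeR 4.0.16 (robust quasi-likelihood, R 4.3.3) at a Benjamini-Hochberg adjusted p of 0.05; CPM are TMM-normalized, and standard errors derive from the F statistic. DESeq2 1.42.0 and limma 3.58.1 were alternatives. The counts of replicates within a group differed by 6.035 to 10.99 times their sampling noise (chi-square per degree of freedom). No library was therefore a copy of another in its own group, and libraries of different groups were not compared in this way. Samples were grouped by the labels.

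Genes named were the 12 with the smallest p per direction among genes whose groups do not overlap and whose counts averaged 50 or more, the 5 per direction for each difference between regions, up to 4 per list by p, and 8 named whatever their values (Glp1r, Nppa, Nppb, Myh6, Myh7, Irs2, Ccn2, Mtus2); unnamed gene models and ribosomal pseudogenes were passed over. Others named were chosen after their values were seen. The comparison, members and lists were chosen with earlier results of these data known. Coordinates are from GENCODE (mm10).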

Additional observations from a re-analysis of the deposited data

How the results depend on the processing

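The count of 0 genes past the adjusted threshold held under RLE scaling, a stricter filter, voom, a fit of all 18 libraries and a test against 0.5 on the log2 scale. It became 5 with no filter on low counts (Hmox1, Igsf1, Kcnc1, Mtus2, Sele) and 2 with DESeq2, and lay between 0 and 2 when 1 library was left out: Mtus2 without PBS replicate 1, C3 and Ide without liraglutide replicate 3, Egr1 without PBS replicate 3. Unadjusted p-values under 0.05 numbered 352 in DESeq2 and 424 to 1087 with 1 library left out, the most without PBS replicate 1. For the difference from infarcted LV all settings gave 0 adjusted calls, and unadjusted ones numbered 275 with no filter and 163 to 242 with 1 library left out. For the difference from atria, adjusted calls numbered 1 with no filter (Lbh), 58 with DESeq2 and 0 to 118 with 1 library left out, 118 without atria liraglutide replicate 3 and 13 without atria liraglutide replicate 2; unadjusted ones numbered 589 to 1797. The causes were not tested.

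Replicate numbers shared between the groups showed no clear pairing of the libraries. Deviations from the group means correlated at 0.0553, -0.134 and 0.158 for the same number and from -0.189 to 0.157 for unlike numbers. Not every library correlated best with its own number. With 3 libraries per group the deviations depend on one another, so these values cannot exclude a pairing. With the replicate block 0 genes passed, as without it. Across regions same-numbered libraries correlated at 0.0765 to 0.139 (infarcted LV) and -0.0349 to 0.14 (atria), and the block gave 0 calls and 1 call (Nab2).

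Of 1793 values under other settings, 16 changed sign and another 28 passed the adjusted threshold. These values are the log2 differences of 104 named genes in non-infarcted LV and the differences between regions of the genes named for them. The sign changes were all within non-infarcted LV. Under voom Irs2 became 0.0253, Egr1 0.0711 and Fos 0.0331, and Egr1 was 0.022 with the block. With 1 library left out, the log2 difference ran from -0.38 to 0.28 for Nppb, -0.0400 to 0.0903 for Myh6, -0.0297 to 0.27 for Myh7, -0.22 to 0.40 for Irs2, -0.17 to 0.47 for Ccn2, -0.60 to 0.64 for Egr1, -1.175 to 1.20 for Fos, -0.89 to 0.39 for Atf3 and -1.10 to 1.25 for Hspa1a. The highest value was without PBS replicate 3 except for Myh6 and Myh7, where it was without PBS replicate 1. Of 490 list medians, 20 moved by more than their spread. Depth limits cytokines and receptors with few reads: at 3 reads the limit is 0.1755 to 0.3799 CPM.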

Other observations

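Several groups of genes stand outside the account above, again with no gene past the adjusted threshold. Among 15 glucocorticoid-induced genes, 3 (20%) had an unadjusted p under 0.05 and stood higher with liraglutide, against 1.92% of all genes, while the median of the list was -0.02. Sult1a1, a sulfotransferase, measured 65.5, 58.7 and 65.0 CPM with liraglutide and 50.9, 55.3 and 38.6 CPM with PBS (log2 difference 0.38, SE 0.114, and 0.25 without PBS replicate 3). Zbtb16, a transcriptional repressor, measured 406, 439 and 415 against 388, 308 and 385 CPM (0.22, SE 0.0894), and Tsc22d3, which codes for the anti-inflammatory protein GILZ, 111, 131 and 153 against 109, 119.6 and 105 CPM (0.24, SE 0.104). The first 2 genes did not overlap between the groups and the last did.

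Genes of the integrated stress and unfolded protein responses had a median of 0.08 over 20 genes. Chac1, which degrades glutathione, measured 10.8, 9.28 and 9.50 CPM with liraglutide and 5.67, 8.25 and 6.58 CPM with PBS (0.54, SE 0.163), and Herpud1, a factor of protein disposal from the endoplasmic reticulum, differed by 0.29 (SE 0.106). Of 15 cell cycle genes 10 lay below 0; the proliferation marker Mki67 measured 3.13, 3.54 and 1.60 against 5.32, 4.40 and 3.55 CPM (-0.69, SE 0.265), and Ccnd1 differed by -0.22 (SE 0.102). The median of that list was -0.07, and -0.24 without PBS replicate 3.

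Clock genes had a median of -0.02 over 18 genes. The repressor Bhlhe41 measured 29.2, 29.0 and 35.2 CPM with liraglutide and 37.0, 38.3 and 51.3 CPM with PBS (-0.43, SE 0.128, and -0.27 without PBS replicate 3). Dbh, the enzyme that makes noradrenaline, measured 1.71, 1.45 and 1.34 against 2.92, 2.11 and 3.29 CPM (-0.87, SE 0.262), while the list of Schwann cell and nerve markers had 6 of 8 genes above 0. Aldh1a2, a retinoic acid enzyme of the epicardium, measured 5.44, 6.44 and 4.37 against 7.25, 8.25 and 8.61 CPM (-0.54, SE 0.174). It was the 1 gene of its list whose groups do not overlap, while 6 of the 8 epicardial and mesothelial markers lay above 0, with a median of 0.07 and values up to 0.60. The 3 mesothelial markers summed to 7.82 to 10.4 and 8.71 to 10.6 CPM. Kcnc1, a voltage-gated potassium channel singled out after its values were seen, measured 6.26, 4.29 and 4.62 against 2.16, 2.57 and 1.90 CPM (1.18, SE 0.225, adjusted p = 0.481), and its difference in infarcted LV was 1.40 (SE 0.424).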
